A study of Mus musculus with 10 samples.

Results

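The interleukin-1 (IL-1) family was examined in subcutaneous B16OVA melanomas as a set of 10 genes. They are the ligands Il1a, Il1b, Il18 and Il33, the soluble inhibitors Il1rn and Il18bp, and the receptor chains Il1r1, Il1r2, Il1rap and Il1rl1. The set is defined by gene symbol, and each gene was represented by its probe set of highest mean over all arrays. A probe set was found for 9 of the 10 genes, 1 each, out of 19176 named genes tested, and Il1rl1, the receptor of IL-33, was not analysed here. Levels are RMA values on the log2 scale, so that a difference of 1 is a doubling, and the level of one probe set cannot be set against that of another.

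IL-1 alpha and IL-1 beta signal through the receptor IL1R1 together with the accessory chain IL1RAP, and the signal runs over MyD88 and IRAK kinases to NF-kB. The IL-1 receptor antagonist, encoded by Il1rn, occupies the same receptor without signalling, the decoy receptor IL1R2 binds ligand without signalling, and IL-18 binding protein captures free IL-18. IL-1 beta and IL-18 are made as precursors that caspase-1 cleaves in inflammasomes, whereas IL-1 alpha and IL-33 act as alarmins released from damaged cells, so that a transcript level does not give the amount of active cytokine.

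Female C57BL/6 mice aged 8 to 10 weeks received B16-OVA cells, a mouse melanoma line that expresses ovalbumin, under the skin. BO-112, a complex of polyethylenimine with poly I:C (a mimic of viral double-stranded RNA), was given into the tumor to 5 mice at 2.5 mg/kg, and another 5 mice were given the vehicle, 5% glucose, in the same way. RNA of the whole tumor was taken 48 h after the second of 2 injections and each mouse had its own Clariom S Mouse array. The study asked which transcripts the injections changed, and in the IL-1 family the question is whether ligands, inhibitors and receptors moved together. In whole tumors, fewer cells of a type and less RNA per cell cannot be told apart.

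All 10 melanocyte lineage markers stood above the control level, the 75th percentile of 5222 negative control probe sets on the same array, on at least 3 arrays of each group. Their mean level was 10.13 to 11.51 in BO-112 tumors and 11.38 to 11.61 in Vehicle tumors. Array medians lay between 6.25 and 6.43 and control levels between 6.07 and 6.30. BO-112 mice 2 and 5 stood apart from the other arrays. Their array contrast, the chance that a positive control outshines a negative control on that array, was lowest, at 0.845 and 0.855, where the series reached 0.891. The groups are therefore compared with and without these 2 tumors.

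In BO-112 tumors the transcripts of the 2 IL-1 ligands and of both soluble inhibitors rose, while no receptor chain passed the test. Il1rn rose by 2.67 on the log2 scale, Il1b by 2.34, Il18bp by 1.90 and Il1a by 1.25 (limma, adjusted p = 0.00647, 0.0432, 0.022 and 0.0179). Their probe sets are TC0200000382.mm.2, TC0200004602.mm.2, TC0700003850.mm.2 and TC0200004599.mm.2 in the same order. No gene of the set fell. These are 4 of 9 genes, where 5.22% of all tested probe sets passed in either direction and 2.43% passed as higher. The groups did not overlap for 3 of the 9 genes, Il1rn, Il18bp and Il1a, against 3.39% of all tested probe sets that were higher without overlap. The median difference over the 9 genes was 1.05, against 0.01 over all tested probe sets, and 9 of 9 were above 0. That median is the difference of Il18, which stood above the control level on 2 BO-112 and 0 Vehicle arrays. The members were chosen with earlier results of these data known, so these shares only describe the set.

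**Figure D1:**
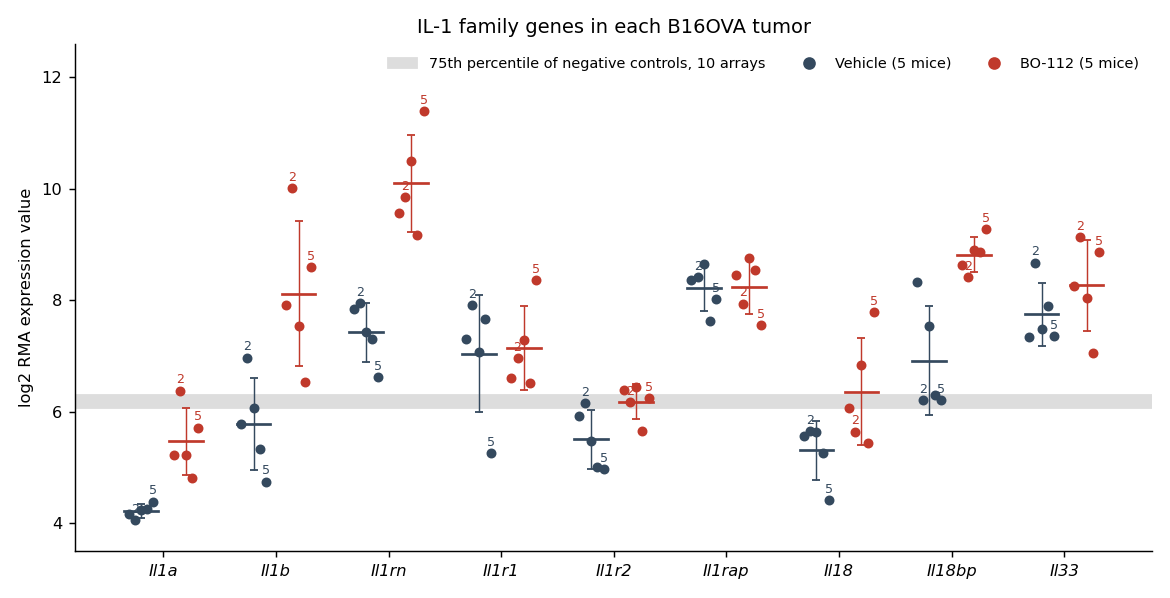
Log2 RMA expression value of 9 IL-1 family genes in each tumor, with Vehicle in dark blue and BO-112 in red (5 mice each), bars for mean and SD, and the grey band for the range over arrays of the 75th percentile of negative controls. Mice 2 and 5 carry their numbers, and Il1rn, Il18bp and Il1a show no overlap between groups.

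**Figure D2:**
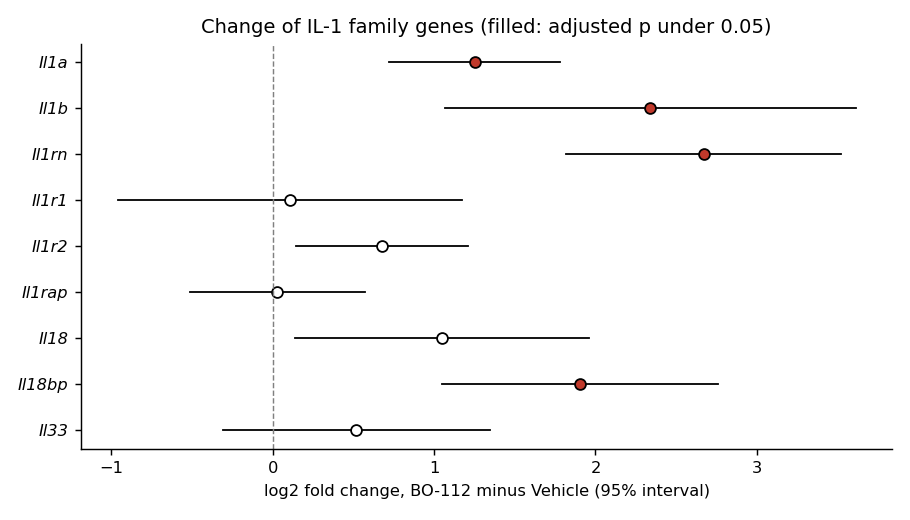
Log2 fold change of each gene, BO-112 minus Vehicle, with its 95% interval from limma. Filled points are the 4 genes with an adjusted p under 0.05, and the intervals of Il1r1, Il1rap and Il33 include 0.

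The region around the start site is shown for the 4 genes that rose, so that their sequences can be compared. Each window holds 250 bases before and 50 after an annotated start, 5′ to 3′ on the gene's strand, from RefSeq on GRCm38.p6. Capitals mark matches, on either strand, to the NF-kB motif, to GAAANNGAA (the core of the interferon-stimulated response element), TTCNNNGAA (the gamma-activated site), TGANTCA (the AP-1 site) or TATAAA (the TATA box).
Il1a, chr2:129309923-129310222, minus strand: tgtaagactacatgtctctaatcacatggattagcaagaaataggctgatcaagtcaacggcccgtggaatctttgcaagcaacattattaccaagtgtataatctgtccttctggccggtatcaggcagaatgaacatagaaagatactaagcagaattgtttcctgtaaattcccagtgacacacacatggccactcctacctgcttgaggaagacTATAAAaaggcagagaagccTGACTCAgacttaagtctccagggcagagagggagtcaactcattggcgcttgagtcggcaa
Il1b, chr2:129371090-129371389, minus strand: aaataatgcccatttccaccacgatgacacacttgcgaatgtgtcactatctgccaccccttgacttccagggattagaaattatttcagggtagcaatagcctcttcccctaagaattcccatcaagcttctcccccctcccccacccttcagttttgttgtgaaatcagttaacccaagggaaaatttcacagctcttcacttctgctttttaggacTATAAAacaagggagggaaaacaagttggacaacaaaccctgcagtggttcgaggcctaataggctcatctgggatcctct
Il1rn, the first of 3 annotated starts, chr2:24336610-24336909, plus strand: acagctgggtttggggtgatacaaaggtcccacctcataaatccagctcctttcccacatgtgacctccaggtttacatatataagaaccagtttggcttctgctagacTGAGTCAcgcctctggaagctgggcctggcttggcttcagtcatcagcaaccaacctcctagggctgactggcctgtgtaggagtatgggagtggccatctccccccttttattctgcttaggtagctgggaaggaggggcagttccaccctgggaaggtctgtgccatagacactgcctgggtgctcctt
Il18bp, chr7:102018183-102018482, minus strand: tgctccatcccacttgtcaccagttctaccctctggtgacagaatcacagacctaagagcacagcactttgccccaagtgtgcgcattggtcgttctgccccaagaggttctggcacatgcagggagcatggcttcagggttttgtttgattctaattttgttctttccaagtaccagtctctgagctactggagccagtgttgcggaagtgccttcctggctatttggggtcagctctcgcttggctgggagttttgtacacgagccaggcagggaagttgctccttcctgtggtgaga

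In Il1a and Il1b the TATAAA match began at bases -32 and -31, counted from the start, and Il1a also held TGACTCA from base -12. In the Il1rn window the match was TGAGTCA from base -141. The other 2 Il1rn windows held no match but a reverse TATAAA at base 15 in the last, and the array does not tell which start was used. The Il18bp window held none of these letters. Over the 13 windows of the 9 genes, TATAAA was found in 6, TGANTCA in 2 and each of the other motifs in 1, namely NF-kB in Il1r1, TTCNNNGAA in Il1r2 and GAAANNGAA in Il1rap. Of 32851 windows of all genes, 13.6% held TATAAA, 7.81% TGANTCA, 8.46% the NF-kB motif, 8.30% TTCNNNGAA and 8.56% GAAANNGAA. Il1a and Il1b are neighbours on chromosome 2 with 0 protein-coding genes between them, and so are Il1r2 and Il1r1 on chromosome 1.

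Among the ligands, Il1b encodes the inducible secreted form that myeloid cells make. Its level was 7.92, 10.01, 7.53, 6.53 and 8.60 in BO-112 mice 1 to 5 and 5.78, 6.97, 6.07, 5.33 and 4.75 in Vehicle mice 1 to 5. BO-112 mouse 2 was the highest and mouse 4 the lowest of its group, and 4 of 5 BO-112 tumors lay above every Vehicle tumor. The means were 8.12 ± 1.30 and 5.78 ± 0.83 (SD, n = 5 each), a 5.06-fold difference with a 95% interval of 2.09 to 12.2 (limma, adjusted p = 0.0432). The level was above the control level on 5 of 5 BO-112 arrays and 1 of 5 Vehicle arrays, so the size of the change is uncertain. The call was lost in 9 of 10 fits with 1 mouse left out, all but the fit without BO-112 mouse 4. The limma adjusted p ran from 0.0123 to 0.107 in these fits. At the study's own cut, a B-statistic over 0, Il1b did not pass (-1.17).

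Il1a encodes the alarmin of the pair, which many cells, keratinocytes included, hold in store. It measured 5.22, 6.38, 5.23, 4.81 and 5.71 in BO-112 mice 1 to 5 against 4.17, 4.05, 4.23, 4.25 and 4.39 in Vehicle mice 1 to 5. The groups did not overlap, Vehicle tumors were nearly level, and BO-112 mouse 2 was again the highest. The means were 5.47 ± 0.60 and 4.22 ± 0.12 (SD, n = 5 each), a 2.38-fold difference (95% interval 1.65 to 3.43; limma, adjusted p = 0.0179). Il1a stood above the control level on 1 of 5 BO-112 arrays and 0 of 5 Vehicle arrays, so that both means are near background. The call held in 9 of 10 fits with 1 mouse left out and was lost without Vehicle mouse 2 (adjusted p = 0.0545).

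Il18, which drives interferon gamma production by T and NK cells, did not pass. Its values were 6.07, 5.64, 6.84, 5.44 and 7.78 in BO-112 mice 1 to 5 and 5.56, 5.65, 5.64, 5.26 and 4.41 in Vehicle mice 1 to 5. BO-112 mice 1, 3 and 5 lay above every Vehicle tumor and mice 2 and 4 within the Vehicle range. The difference was 1.05 with a 95% interval of 0.14 to 1.96 (limma, adjusted p = 0.148). It stood above the control level on 2 of 5 BO-112 arrays and on 0 of 5 Vehicle arrays.

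Il33, the nuclear alarmin of barrier and stromal cells, was above the control level on all 10 arrays and did not pass either. It ranged from 7.05 to 9.14 in BO-112 tumors (median 8.25) and from 7.33 to 8.68 in Vehicle tumors (median 7.48). The ranges overlapped over most of their width. The difference was 0.52, with a 95% interval of -0.31 to 1.35 (limma, adjusted p = 0.42).

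Il1rn, the receptor antagonist, measured 9.57, 9.85, 10.50, 9.17 and 11.40 in BO-112 mice 1 to 5 and 7.85, 7.95, 7.42, 7.30 and 6.61 in Vehicle mice 1 to 5. Every BO-112 tumor lay above every Vehicle tumor, with BO-112 mouse 5 highest. The means were 10.10 ± 0.87 and 7.42 ± 0.53 (SD, n = 5 each), a 6.38-fold difference (95% interval 3.53 to 11.5; limma, adjusted p = 0.00647). All 10 arrays were above the control level, and Il1rn kept its call in 10 of 10 fits with 1 mouse left out (adjusted p 0.00335 to 0.0246).

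Il18bp, whose product neutralises IL-18 and is induced by interferon gamma, measured 8.64, 8.42, 8.90, 8.86 and 9.28 in BO-112 mice 1 to 5. In Vehicle mice 1 to 5 it measured 8.34, 6.20, 7.53, 6.29 and 6.21. BO-112 tumors were close together, and the groups did not overlap, although Vehicle mouse 1 came near BO-112 mouse 2. The means were 8.82 ± 0.32 and 6.92 ± 0.97 (SD, n = 5 each), a 3.74-fold difference (95% interval 2.07 to 6.76; limma, adjusted p = 0.022). All arrays were above the control level, but Vehicle mice 2, 4 and 5 only by 0.14, 0.07 and 0.09. The size of the change is therefore uncertain. The call was lost in 4 of 10 fits with 1 mouse left out, those without BO-112 mouse 1 or Vehicle mouse 2, 4 or 5, with an adjusted p of up to 0.0636.

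None of the 3 receptor chains passed at an adjusted p of 0.05, although Il1r2 did at an unadjusted p (0.0174). Il1r1, the signalling receptor, ranged from 6.51 to 8.37 in BO-112 tumors (median 6.97) and from 5.26 to 7.91 in Vehicle tumors (median 7.30). Its difference was 0.11, with an interval from -0.96 to 1.17 (limma, adjusted p = 0.912). Il1rap, the shared accessory chain, ranged from 7.56 to 8.75 and from 7.62 to 8.66, with a difference of 0.03 (95% interval -0.52 to 0.57; limma, adjusted p = 0.956). For these 2 genes the groups lay over one another, and the sign of the difference turned in fits given with the processing alternatives.

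Il1r2, the decoy receptor, measured 6.38, 6.18, 6.45, 5.65 and 6.24 in BO-112 mice 1 to 5 and 5.92, 6.15, 5.47, 5.01 and 4.96 in Vehicle mice 1 to 5. All BO-112 tumors but mouse 4 lay above every Vehicle tumor. The difference was 0.68 with a 95% interval of 0.14 to 1.21 (limma, adjusted p = 0.116), at levels above the control level on 3 BO-112 arrays and 1 Vehicle array. It passed in 1 of 10 fits with a mouse left out, the one without BO-112 mouse 4 (adjusted p = 0.046).

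The tumors were not ordered alike by all genes. Within the BO-112 group, mouse 2 was the highest for Il1a, Il1b and Il33, and mouse 5 for Il1rn, Il18, Il18bp and Il1r1. Mouse 4 was the lowest for 7 of the 9 genes, all but Il18bp and Il1rap. In the Vehicle group, mouse 2 was the highest for 6 genes and mouse 5 the lowest for 5. Mouse 2 of the BO-112 group also had the highest means of keratinocyte and neutrophil markers (9.29 and 7.12), and mouse 5 those of monocyte and macrophage, T and NK cell, and skeletal muscle markers (9.05, 8.36 and 10.49). Beyond a fit with keratinocyte markers as a covariate, given below, their part in the levels of the IL-1 family was not tested.

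Without BO-112 mice 2 and 5, Il1rn and Il1a kept their calls (limma, adjusted p = 0.00806 for both), while Il18bp (0.05001) and Il1b (0.095) lost theirs. With array contrast as a covariate, 0 of the 9 genes and 27 of all probe sets passed. The adjusted p of the 4 genes was then 0.104 for Il1rn, 0.241 for Il1a, 0.318 for Il18bp and 0.581 for Il1b. Array contrast was 0.845 to 0.883 in BO-112 and 0.867 to 0.891 in Vehicle tumors, and its part in these results was not tested beyond this fit.

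**Figure D3:**
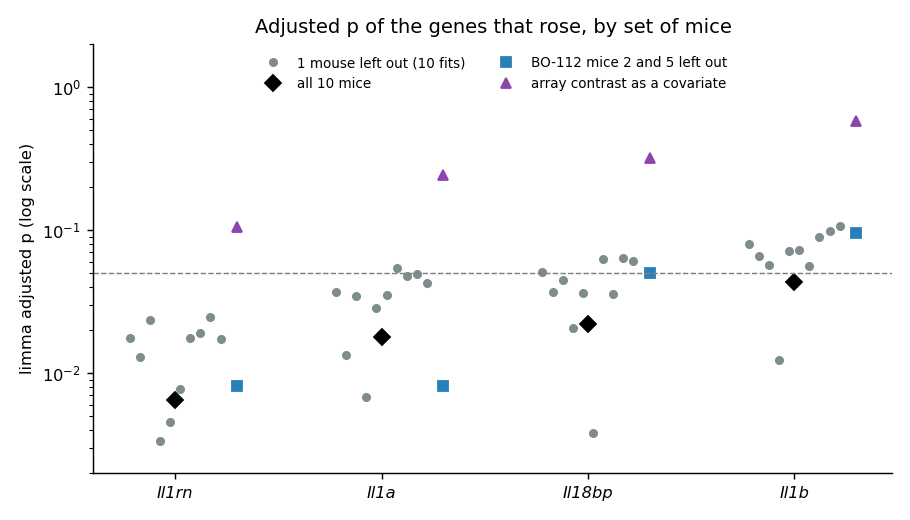
Adjusted p from limma on a log axis for the 4 genes that rose, with all 10 mice (diamonds), with 1 mouse left out (circles, 10 fits), without BO-112 mice 2 and 5 (squares) and with array contrast as a covariate (triangles). The dashed line is at 0.05, and all points of Il1rn but the triangle lie below it.

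Whether an inhibitor or decoy moved by another amount than its ligand or partner was asked from the difference of their log2 values in the same tumor. One gene of each difference was at or below the control level on most Vehicle arrays (Il1b above it on 1 of 5, Il18 on 0 and Il1r2 on 1), so the background limits the size of the shifts. The 3 differences were tested with a two-sided exact permutation test over all splits of the mice, which can give no p below 0.00794, and adjusted over the 3. Il1rn minus Il1b was 1.65, -0.16, 2.97, 2.65 and 2.80 in BO-112 mice 1 to 5 and 2.07, 0.98, 1.35, 1.97 and 1.87 in Vehicle mice 1 to 5. Mouse 2 of the BO-112 group stood far below the others, and the groups overlapped. The mean moved by 0.33 (exact permutation p = 0.635, adjusted p = 0.635). With 1 mouse left out the shift ran from 0.087 without BO-112 mouse 3 (exact permutation, adjusted p = 0.921) to 0.87 without BO-112 mouse 2 (adjusted p = 0.19).

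Il18bp minus Il18 was 2.58, 2.78, 2.06, 3.42 and 1.49 in BO-112 mice 1 to 5 and 2.77, 0.55, 1.90, 1.03 and 1.81 in Vehicle mice 1 to 5. The mean moved by 0.85 with overlap (exact permutation p = 0.135, adjusted p = 0.393). Il1r2 minus Il1r1 ranged from -2.13 to -0.22 in BO-112 tumors and from -2.65 to -0.29 in Vehicle tumors, and moved by 0.57 (exact permutation p = 0.262, adjusted p = 0.393). Without BO-112 mice 2 and 5 the 3 shifts, in the same order, were 0.77, 1.07 and 0.90. Each then had an exact permutation p of 0.125 and an adjusted p of 0.125. None of the 3 differences passed, which does not show that the paired genes moved by the same amount.

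**Figure D4:**
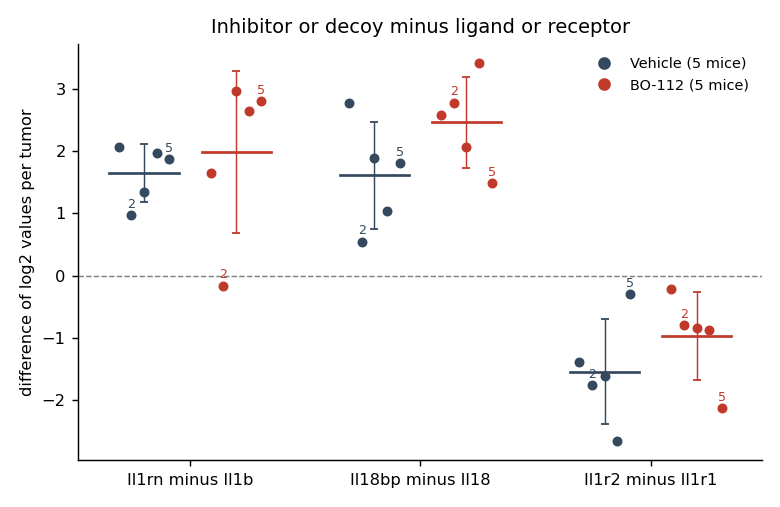
Difference of 2 log2 values in each tumor (5 Vehicle mice in dark blue, 5 BO-112 mice in red, bars for mean and SD) for Il1rn minus Il1b, Il18bp minus Il18 and Il1r2 minus Il1r1. The groups overlap in all 3, and BO-112 mouse 2 has the lowest value of Il1rn minus Il1b (the position of 0 has no meaning for different probe sets).

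Cell type markers that moved beside these genes are given as measurements. Of all tested probe sets, 5.22% passed at an adjusted p under 0.05 in either direction and 2.43% as higher. The share at an unadjusted p under 0.05 was not counted, so counts at that level, here and below, have no background. All 11 neutrophil markers measured had a higher mean in BO-112 tumors, 8 at an unadjusted p under 0.05 and 0 at an adjusted p under 0.05 in limma. Their mean ran from 5.35 to 7.12 against 5.09 to 5.66, and 6 of them stood above the control level on at least 3 BO-112 arrays against 1 on Vehicle arrays. The 2 calprotectin genes S100a8 and S100a9, which neutrophils carry in abundance, differed by 1.89 and 1.86 (limma, adjusted p = 0.115 and 0.0703), and S100a8 was above the control level on 0 of 5 Vehicle arrays. Of 11 monocyte and macrophage markers, Ly6c2 rose by 3.57 and Mrc1 fell by 2.79 (limma, adjusted p = 0.0108 and 0.0112). The mean level of the 11 was 7.17 to 9.05 against 6.18 to 8.02. Of 8 T and NK cell markers, Cd3g, Cd8a and Il2rb rose (limma, adjusted p = 0.0257, 0.0202 and 0.0466). The mean of the 8 was 6.08 to 8.36 against 5.11 to 6.08. Kit rose by 0.55 (limma, adjusted p = 0.0498) and was the only 1 of 8 mast cell and basophil markers that passed. The median difference of these 8 was 0.16, and 6 of them were at or below the control level on all arrays. Il7r rose by 1.46 (limma, adjusted p = 0.0413) and was the only 1 of 6 markers of type 2 innate lymphoid cells that passed. The median difference of these 6 was 0.28. Of the 10 melanocyte markers 1 differed upward, 4 passed at an unadjusted p under 0.05, and Oca2 fell by 1.18 (limma, adjusted p = 0.0444). BO-112 mouse 5, the highest for Il1rn and Il18bp, had the lowest melanocyte mean (10.13) and the highest fibroblast and endothelial means (9.48 and 8.17). Keratinocyte markers (12, mean 5.46 to 9.29 against 5.48 to 7.98) and skeletal muscle markers (10, mean 5.89 to 10.49 against 5.97 to 8.92) held no gene that passed, also at an unadjusted p under 0.05. With the keratinocyte mean as a covariate, the 4 IL-1 family genes that rose kept their calls. The limma adjusted p was 0.0135 for Il1rn, 0.0232 for Il1a, 0.0382 for Il1b and 0.0395 for Il18bp. The part of these cells in the IL-1 family results was not tested beyond this fit.

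The genes whose pattern over the 10 arrays was closest to each gene that rose are named, among 19167 genes. Closeness is the root mean square distance of deviations from the Vehicle mean. It includes the shift between groups, so genes that differed by a like amount lie close, and common regulation was not tested. For Il1b the closest genes were S100a9 (0.445), the neutrophil chemokine Cxcl2 (0.512) and S100a8 (0.618). For Il1rn they were Lilr4b (0.202), the monocyte chemokine Ccl2 (0.227) and the NF-kB inhibitor Tnfaip3 (0.271). For Il18bp they were Herc6 (0.220), the double-stranded RNA sensor Ifih1 (0.228) and Xaf1 (0.245), all 3 known as interferon-stimulated genes. For Il1a they were Olfr1381 (0.255), Btbd35f9 (0.255) and Plscr2 (0.277).

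Around the family, the genes that mature IL-1 beta and IL-18 moved in part. Of 19 measured, 4 rose and 0 fell, with a median difference of 0.19. Of all tested probe sets, 2.43% passed as higher and 3.39% were higher without overlap. This list and those below were chosen with earlier results of these data known. Casp4, the non-canonical inflammasome caspase, measured 9.30, 9.20, 9.93, 9.68 and 10.26 in BO-112 mice 1 to 5 and 7.78, 7.23, 6.97, 6.50 and 5.73 in Vehicle mice 1 to 5. The groups did not overlap, and the difference was 2.83 (SE 0.34; limma, adjusted p = 0.00354). Gsdmd, the pore-forming protein it cleaves, rose by 1.26 (adjusted p = 0.0242), Nlrp3, the inflammasome sensor, by 0.90 (0.0296), and Txnip, which binds it, by 0.85 (0.0398). Nlrp3 stood above the control level on 0 of 10 arrays, and Casp1, the converting enzyme, differed by 1.53 (adjusted p = 0.0781). Between 1 (without Vehicle mouse 2, 4 or 5) and 5 (without BO-112 mouse 4) of the 19 rose with 1 mouse left out, 2 without BO-112 mice 2 and 5 and 0 with array contrast.

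Of 16 measured genes of IL-1 receptor signalling, 2 rose and 0 fell, where 2.43% of all tested probe sets passed as higher. The median difference was 0.12. Nfkbia, the inhibitor of NF-kB that NF-kB itself induces, measured 9.63, 9.45, 9.69, 8.48 and 10.76 in BO-112 mice 1 to 5 against 7.77, 7.44, 6.90, 7.34 and 6.85 in Vehicle mice 1 to 5. The groups did not overlap, and the difference was 2.34 (SE 0.34; limma, adjusted p = 0.00672). Irak2, a kinase of the receptor complex, rose by 0.95 (adjusted p = 0.0146). The adaptor Myd88 differed by 1.18 (adjusted p = 0.144). At an unadjusted p under 0.05, 7 of the 16 differed, Map3k7 and Mapk14 downward and the others upward. Map3k7 differed by -0.39 and Mapk14 by -0.27 (limma, adjusted p = 0.147 and 0.191). With array contrast as a covariate 0 of the 16 passed, and without BO-112 mouse 4, 3 rose and 1 fell.

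Of 19 genes inducible by IL-1, 9 rose and 0 fell, where 2.43% of all tested probe sets passed as higher. The differences of 19 of 19 were above 0, with a median of 1.27. Many of these genes also respond to other inflammatory stimuli. Ccl2 measured 10.54, 10.38, 11.05, 9.65 and 12.36 in BO-112 mice 1 to 5 and 8.36, 8.65, 7.86, 7.93 and 7.72 in Vehicle mice 1 to 5, with no overlap. It rose by 2.69 (SE 0.41; limma, adjusted p = 0.00737), as did Lcn2, an iron-binding protein of neutrophils and epithelia, by the same amount (adjusted p = 0.0349), although Lcn2 was above the control level on 0 of 5 Vehicle arrays. Cxcl2 rose by 2.45 (adjusted p = 0.0194) and Tnfaip3 by 2.44 (adjusted p = 0.00973). Between 3 (without Vehicle mouse 3 or 5) and 12 (without BO-112 mouse 4) of the 19 rose with 1 mouse left out, 6 without BO-112 mice 2 and 5, 5 with the keratinocyte mean as a covariate and 0 with array contrast.

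Of 6 genes of T and NK cells that answer to IL-18, 2 rose and 0 fell, where 2.43% of all tested probe sets passed as higher. Gzmb, the cytotoxic granule protease, rose by 2.95 (SE 0.54; limma, adjusted p = 0.0143), and Ifng by 0.99 (adjusted p = 0.0194), the latter above the control level on 2 BO-112 and 0 Vehicle arrays. The count was 1 without Vehicle mouse 2, 3 or 5 and 0 with array contrast. The T and NK cell markers Cd3g, Cd8a and Il2rb also rose. Whether Gzmb and Ifng followed IL-18 or the content of these cells was not tested. Of 9 genes of type 2 immunity that answer to IL-33, 0 passed in limma (1 at an unadjusted p under 0.05) and the median difference was -0.00. Retnla, a product of alternatively activated macrophages, differed by -1.16 (unadjusted p = 0.0449, limma adjusted p = 0.19) and Il9 by 0.27 (adjusted p = 0.247).

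Of the other IL-1 family genes, 11 were measured, and 0 passed in limma (5 at an unadjusted p under 0.05). Of these 11, 7 were at or below the control level on all 10 arrays. Il1rl2, the IL-36 receptor, differed by 1.14 (unadjusted p = 0.0156, limma adjusted p = 0.111), and Il1f9, an IL-36 ligand, by 0.87 (unadjusted p = 0.0221, limma adjusted p = 0.133). The 2 genes were above the control level on 3 and 2 BO-112 arrays and on no Vehicle array. Without BO-112 mouse 4, 2 of the 11 rose.

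**Figure D5:**
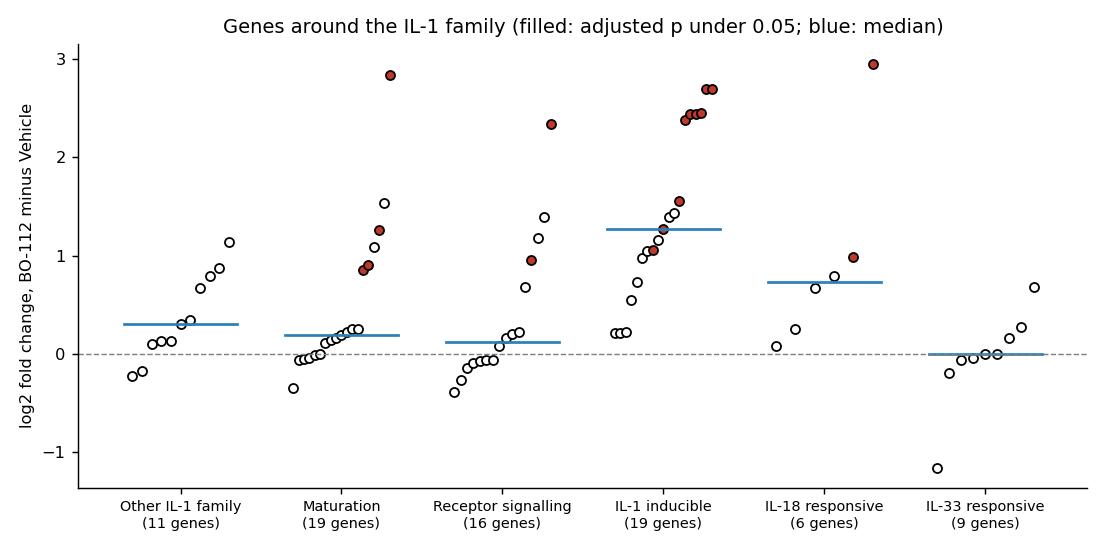
Log2 fold change, BO-112 minus Vehicle, of each gene in 6 lists around the IL-1 family, with the number of genes tested under each name. Filled points are genes with an adjusted p under 0.05 in limma, blue lines are list medians, and the list of IL-1 inducible genes has the highest median, 1.27.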

How the data were processed

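Whole B16OVA tumors of 5 BO-112 and 5 Vehicle mice were measured on 1 array each. The authors normalized the arrays with RMA (its version is not given in sources used here), which subtracts background, aligns arrays and summarizes probes, and deposited log2 values. Titles gave the group and number of each separate mouse, and the p-values measure the spread between them. The number of arrays limits the precision.

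Control probe sets were set aside, leaving 22206 transcript probe sets. The study's filter (over 4 on 3 or more arrays of a group) kept 21792, which were tested two-sided without covariates in limma 3.58.1 (R 4.3.3, eBayes with a prior proportion of 0.01), with Benjamini-Hochberg adjustment over all of them at 0.05. All adjusted p-values of genes are from limma, and 1138 probe sets passed, 529 higher and 609 lower. All 9 measured members passed the filter in both groups. Differences of 2 genes were tested by exact permutation. The fit was tested on simulated data. The tests planned for Il1rl1 were not run.

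The members and lists were chosen with earlier results of these data known. By rule, the text names all members, from each pathway list the 4 genes that changed most among those that passed (or, with none, the 2 with the smallest p), and the 3 genes closest in pattern to each member that passed. Casp1, Myd88, Map3k7, Mapk14 and the single marker genes were named after their values were seen. The fit was repeated without the filter, above a mean of 6, with median centring, quantile normalization or a variance trend, and with array weights, the mouse number as a block, mice left out, array contrast or keratinocyte markers as covariates, or the study's B-statistic at 0. Promoter windows came from RefSeq (GRCm38.p6). The probe sets are given no coordinates, since sources used here name no build.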

Additional observations from a re-analysis of the deposited data

Results flagged for a closer look

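Of 56 sets of values from 1 gene in 1 group, 1 held a tumor far from the others. Gzmb in Vehicle mouse 1 measured 6.62, against 5.34 to 5.63 in the other Vehicle tumors, and the gap was 0.772 of the range of the group. The threshold used is one that chance passes in about 5% of groups, so 1 of 56 is not more than chance gives.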

How the results depend on the processing

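The number of probe sets that passed was 1138 and that of IL-1 family genes 4. The first became 1726 with array weights, 102 with the mouse number as a replicate block, 27 with array contrast as a covariate, 658 with keratinocyte markers as a covariate and 475 at a B-statistic over 0. The second became 0 with the block, 0 with array contrast, 2 without BO-112 mice 2 and 5 and 3 at a B-statistic over 0. Il1b, at -1.17, was the gene lost at that cut. With 1 mouse left out they ranged from 347 to 3134 (lowest without Vehicle mouse 2, highest without BO-112 mouse 4) and from 1 to 5. With the block, the limma adjusted p was 0.0539 for Il1b, 0.0541 for Il1rn, 0.065 for Il1a and 0.0673 for Il18bp, and 1 gene rose in each of the maturation and IL-1 inducible lists and 0 in the signalling and IL-18 lists. The deviations of tumors of the same number had correlations of -0.31, -0.087, 0.39, -0.21 and -0.26, and only mouse 3 was closest to its own number. The titles do not say whether the numbers pair tumors, and 5 correlations cannot decide it. Il1b also lost its call with a variance trend (0.0594) and array weights (0.0553). Of 177 values of single genes under 20 alternatives, 137 kept direction and call, 26 lost the call, 1 gained it and 13 turned sign. Il1r1 turned without BO-112 mice 2 and 5 (adjusted p = 0.8528), with array contrast (0.9324) and with array weights (0.7765), Il1rap with median centring (0.9157) and keratinocyte markers (0.9992), and Il33 with array contrast (0.9935). With 1 mouse left out, Il1r1 turned in 2 fits and Il1rap in 5, with adjusted p of 0.5915 to 0.9467 and 0.6449 to 0.9726 over all 10 fits. The 3 differences within a tumor kept their direction, and their shifts ranged over 0.087 to 0.87, 0.59 to 1.14 and 0.29 to 0.88 with 1 mouse left out. The cause of these changes was not tested. With a mean above 6, Il1a, Il18 and Il1r2 were not tested. No other probe set of a member and no Il1rl1 difference could be run. Il1a, Il18 and Il1r2 lay mostly below the control level, which limits the size of their changes.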
